A study of Bos taurus with 3 samples.

Results

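The respiratory chain subunits of the bovine mammary gland were followed from the dry period into the days after calving. Members were the genes whose symbol in the deposited gene tables fits the nuclear gene families of complexes I to V (NDUFA, NDUFB, NDUFC, NDUFS and NDUFV, SDHA to SDHD, UQCR and CYC1, COX4 to COX8, and ATP5, without ATP5SL). Of the 9154 genes listed in any library, 76 met this rule. Of these, 71 encode subunits, 35 of complex I, 4 of complex II, 8 of complex III, 11 of complex IV and 13 of complex V. The other 5 were not counted as subunits and are described after complex V. Subunits of the same families without an entry under their symbol, such as COX5B, COX6C and ATP5H, were not analysed here.

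Mammary biopsies of Holstein cows in their second parity were taken 35 days (−35 d, dry period) and 7 days (−7 d) before calving or 3 days after it (+3 d, colostrum), from a different set of cows each time. The tissue was pooled at each time point, and 1 library was sequenced per pool, so the cows, the pool and the time point cannot be told apart. Stage I of lactogenesis is the comparison of −7 d with −35 d, stage II is +3 d with −7 d, and the overall comparison is +3 d with −35 d. No treatment or genetic change separates the groups.

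The mitochondrial respiratory chain passes electrons from NADH (complex I) and succinate (complex II) through ubiquinone, complex III and cytochrome c to complex IV, which reduces oxygen. Complexes I, III and IV pump protons across the inner membrane, and complex V, the ATP synthase, uses the returning protons to make ATP. The milk-secreting epithelium is known for its demand for ATP, which drives the synthesis of milk protein, lactose and fat. The genes followed here are nuclear, and the subunits encoded in the mitochondrial genome were not analysed here.

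The assay was tag-based digital gene expression, which counts short tags next to a CATG restriction site in each transcript. The libraries held 5914422 (−35 d), 5593237 (−7 d) and 5845821 (+3 d) clean tags. The level of a gene was its tag count per 1000000 clean tags (TPM, with no scaling by transcript length), so levels were compared between libraries for a gene and not between genes. The median subunit had 441, 445 and 234 tags in the libraries in time order. The 5 milk protein genes that each held over 1% of a library (the caseins and PAEP) took 0.348% of all clean tags in the dry period, 4.13% a week before calving and 22.6% in the colostrum library. Every other gene was therefore scaled against a total that these transcripts filled to a growing degree. The median log2 ratio of the 7570 genes that averaged 1 TPM or more was −0.19 in stage I, −0.31 in stage II and −0.53 overall. Taking the 5 milk protein genes out of the totals shifted all log2 ratios by 0.06, 0.31 and 0.36 in the same order. The cause of what remained was not tested. TMM scaling, which sets the bulk of genes to no change, shifted all log2 ratios by 0.19, 0.31 and 0.50. Results below are given on the clean tag total, with the TMM result beside them.

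Genes were called at an adjusted p of at most 0.001 and a change of at least 2-fold, using the Audic-Claverie exact test with Benjamini-Hochberg adjustment over all genes. This test and the 95% intervals compare 2 libraries and cover counting error only. They hold no spread between cows, and tags amplified by PCR are not independent molecules. Medians over genes were taken on log2 ratios with 0.5 tags added to each count, and the ratios of single genes had no tags added. Ratios below are log2 ratios unless called fold, and a range in brackets after one is its 95% interval.

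In stage I the respiratory chain as a whole stayed near its dry period level on the clean tag total, with a few subunits well apart from the rest. The median log2 ratio of the 71 subunits was −0.01, from −2.23 for COX7A2 to 1.16 for UQCRC2 among those with tags in both libraries. UQCRC2 was called higher, and COX5A, COX7A2, COX8A, NDUFB8 and SDHC were called lower. The 1 higher call is 1.41% of subunits, against 2.62% of all genes called higher. The 5 lower calls are 7.04% of subunits, against 6.45% of all genes called lower, so neither share stood far from the background. Under TMM the median was 0.18, with 4 subunits called higher (ATP5G3, NDUFB6, NDUFC2 and UQCRC2; 4.22% of all genes) and 4 called lower (all of the above but COX8A; 3.9% of all genes).

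In stage II the level of most subunits was lower on the clean tag total. The median log2 ratio was −0.81, 66 of 71 subunits were below 0, and 60 of 71 were below the median of all genes. No subunit was called higher (3.12% of all genes) and 19 were called lower, which is 26.8% of subunits against 10.4% of all genes. Under TMM the median was −0.50, and 2 were called lower, NDUFC2 and the NDUFV2 entry with more tags, which is 2.82% of subunits against 4.9% of all genes. None was called higher under TMM (5.87% of all genes). TMM moves every gene by the same amount, so the rank of a subunit against the median gene is fixed, while the number past the 2-fold threshold was not.

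In the overall comparison, +3 d against −35 d, the median was −0.75 on the clean tag total and −0.25 under TMM. No subunit was called higher (2.33% of all genes) and 27 were called lower, which is 38.0% of subunits against 16.3% of all genes. Under TMM 10 were called lower, which is 14.1% of subunits against 4.94% of all genes. These were COX5A, COX7A2, COX8A, NDUFA6, NDUFB2, NDUFB3, NDUFB8, NDUFC1, NDUFV2 and SDHC. ATP5E and UQCRC2 were called higher under TMM (6.23% of all genes). The overall comparison shares a library with each of the other comparisons, so its calls are no separate evidence.

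Markers of the cell types in the tissue also differed between the pools, and in bulk tissue fewer cells of a type and less RNA per cell cannot be told apart. Markers of the luminal epithelium (5 of 7 with tags, ELF5, EPCAM and KRT8 among them) summed to 1424, 1052 and 768 TPM in time order, but did not move together. ELF5 had 271, 353 and 155 TPM, EPCAM had 498, 293 and 210 TPM, and KRT8 had 297, 157 and 164 TPM. Markers of smooth muscle and myoepithelium (5 of 5) summed to 768, 413 and 742 TPM, and they too did not move together. TAGLN had 219, 109 and 292 TPM, ACTA2 had 185, 83.5 and 160 TPM, and MYH11 had 145, 121 and 177 TPM. KRT5 had 160, 41.1 and 62.1 TPM, and KRT14 had 59.7, 57.9 and 51.3 TPM. The adipocyte markers (5 of 6) summed to 208, 137 and 281 TPM, of which FABP4 alone held 153, 91.4 and 244 TPM. PLIN1 had 23.8, 11.3 and 16.1 TPM and was also higher at +3 d than at −7 d (not called), while ADIPOQ, CIDEC and LEP were lower. The macrophage markers (4 of 5) summed to 68.6, 29.7 and 96.0 TPM and did not move together. CSF1R had 52.1, 22.5 and 54.4 TPM, and CD163 had 7.78, 1.97 and 19.8 TPM. CD68 had 5.92, 0.894 and 2.05 TPM, and CD14 had 2.87, 4.29 and 19.7 TPM. The T cell markers (5 of 5) summed to 144, 97.4 and 85.2 TPM. Of these, CD3G had 40.1, 13.9 and 17.1 TPM, while the others were lower at each later time point. Endothelium and erythrocyte markers, at 2 of 3 each, stayed at or under 9.41 and 0.513 TPM. The part of these shifts in the levels of the respiratory chain genes was not tested.

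**Figure D1:**
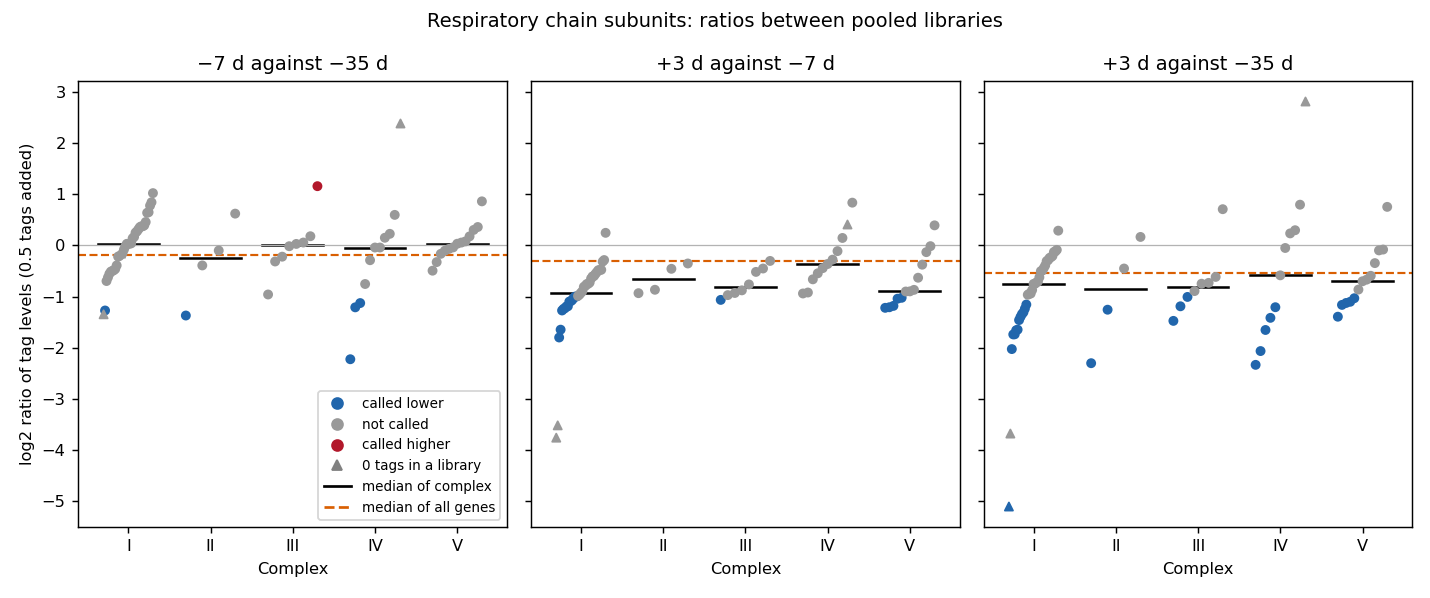
Log2 ratio (0.5 tags added, clean tag totals) of each subunit by complex, 1 point per gene, for −7 d against −35 d, +3 d against −7 d and +3 d against −35 d. Blue points were called lower and the red point higher, triangles had 0 tags in a library, black bars are medians of a complex and the dashed line is the median of all genes (−0.19, −0.31 and −0.53). In stage II the bars of complexes I, III and V lie between −0.93 and −0.82 and that of complex IV at −0.36, and TMM moves all points of a panel up by 0.19, 0.31 or 0.50.

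Genes of a like level gave a further reference. The 4383 other genes with a mean between 10.01 and 178 TPM, the range that holds the subunits from their 10th to their 90th percentile, had medians of −0.14 in stage I, −0.34 in stage II and −0.49 overall. The subunit medians were −0.01, −0.81 and −0.75. Summed over all 71 subunits, the level was 7113 TPM at −35 d (95% interval 7046 to 7182), 7362 TPM at −7 d (7291 to 7433) and 4453 TPM at +3 d (4399 to 4507). As a share of the tags assigned to genes other than the 5 milk protein genes, this was 1.77%, 1.98% and 1.47%, so the level at +3 d was the lowest of the 3 libraries on this scale as well.

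Complex I, the NADH dehydrogenase, has a matrix arm that takes electrons from NADH and a membrane arm that pumps protons. Its 35 entries had a median log2 ratio of 0.03 in stage I, −0.93 in stage II and −0.75 overall. Stage II held 13 of its lower calls, and 33 of 35 entries were below the median of all genes. By role, 3 of the 8 core entries, 2 of the 7 accessory subunits of the matrix arm and 8 of the 20 of the membrane arm were called lower in stage II, against 10.4% of all genes. The lower calls overall were 2 of 8, 1 of 7 and 9 of 20, against 16.3% of all genes, and the 1 of 7 of the matrix arm (14.3%) was below that share. Under TMM complex I had 2 lower calls in stage II and 6 overall (5.71% and 17.1%, against 4.9% and 4.94% of all genes).

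The core subunits carry the cofactors and the ubiquinone site. NDUFV2, which holds an iron-sulfur cluster of the NADH module, had 2 entries. The predicted transcript XM_001250334.3 had 209, 218 and 65 tags, and its stage II log2 ratio of −1.81 (−2.23 to −1.40; Audic-Claverie, adjusted p = 5.72e-21) was the lowest of complex I among genes that averaged 5 TPM or more. The curated transcript NM_174565.2 had 6, 5 and 0 tags. The entries cannot be told apart where they share sequence, so the level of NDUFV2 is uncertain. NDUFS1, the largest core subunit, had 87.2, 89.4 and 36.9 TPM and was called lower in stage II at −1.27, while NDUFS7 had 18.9, 21.3 and 17.4 TPM and was not called, at −0.29. NDUFV1 had 17.9, 16.1 and 10.6 TPM and was not called in any comparison, with a stage II ratio of −0.60.

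The accessory subunits, which surround and stabilise the core, differed in their profiles. NDUFB8, of the membrane arm, had 13.5, 5.54 and 3.25 TPM in time order and so was highest in the dry period. Its log2 ratio was −1.29 in stage I (−1.93 to −0.67; Audic-Claverie, adjusted p = 6.02e-05) and −2.06 in the overall comparison, the lowest of complex I among such genes. NDUFC2, also of the membrane arm, had 33, 64 and 21 tags. It was highest at −7 d, with a log2 ratio of 1.04 in stage I (0.41 to 1.69; Audic-Claverie, adjusted p = 0.00242, not called) and of −1.67 in stage II (−2.46 to −0.94; adjusted p = 4.14e-06). Its partner NDUFC1, named after the values were seen, had 724, 480 and 214 tags and was highest at −35 d, falling by 1.74 on the log2 scale overall (Audic-Claverie, adjusted p = 1.33e-62).

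NDUFB6 had 148, 252 and 179 tags and was the highest of complex I in the overall comparison, with a log2 ratio of 0.29 (−0.03 to 0.62) that passed no threshold. NDUFB11 had 154, 99 and 123 tags and was the highest of the complex in stage II, at 0.25 (−0.14 to 0.65), also not called. Neither ratio was distinguishable from 0 by counting error on the clean tag total, and under TMM they were 0.79 and 0.56. NDUFB3 had 17, 6 and 0 tags. A count of 0 allows up to 0.513 TPM at +3 d (3 tags), and the 17 tags at −35 d were at least 5.60-fold above that floor. With the counting error of the 17 tags included, the 95% interval of the overall log2 ratio reached up to −2.03. A gene could also lose tags because the study removed those seen a single time.

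Among the accessory subunits of the matrix arm, NDUFS4, NDUFV3, NDUFA7 and NDUFA5 had their highest level at −7 d and stage I log2 ratios of 0.64, 0.78, 0.46 and 0.38, below the 2-fold threshold. The 7 subunits of this role had a stage I median of 0.38, against −0.21 for the 20 of the membrane arm. In stage II the medians were −0.93 and −0.85. The others of the matrix arm were NDUFS6 and NDUFA9, with stage I ratios of −0.01 and 0.03, and NDUFA6, at −0.50. NDUFA6 had 131, 92.8 and 39.2 TPM and was called lower in stage II and overall. In the membrane arm, 11 of the 20 were below 0 in stage I, while NDUFC2, NDUFB6 and NDUFA10 reached 1.04, 0.85 and 0.65. This contrast between the arms was noticed in the data and was not tested.

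**Figure D2:**
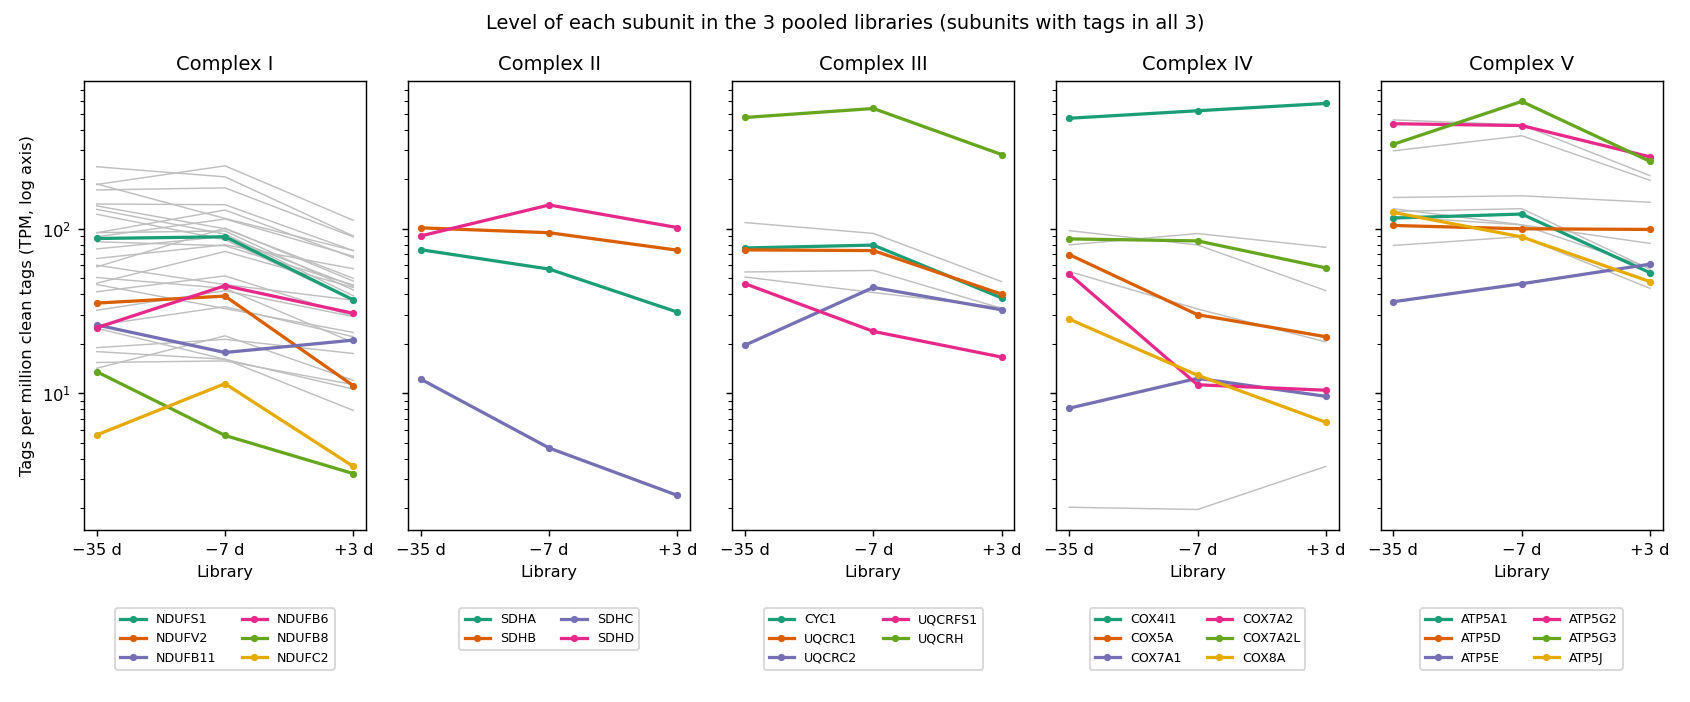
Level of each subunit (TPM, log axis) in the −35 d, −7 d and +3 d libraries, 1 line per subunit with tags in all 3 libraries, in a panel for each complex, with the genes described in the text in colour and the rest in grey. COX4I1 (469, 521 and 578 TPM) and ATP5E (36.0, 46.3 and 60.9 TPM) have their highest point at +3 d, COX7A2 drops from 53.1 to 11.3 TPM between −35 d and −7 d, and most grey lines bend down between −7 d and +3 d on this clean tag scale.

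Complex II, succinate dehydrogenase, also works in the citrate cycle. Its 4 genes had medians of −0.24, −0.66 and −0.85 (−0.05, −0.35 and −0.36 under TMM). Of these, 1, 0 and 2 were called lower (25%, 0% and 50%, against 6.45%, 10.4% and 16.3% of all genes). Under TMM 1, 0 and 1 were called lower (25%, 0% and 25%, against 3.9%, 4.9% and 4.94% of all genes). Its membrane anchors, SDHC and SDHD, which together hold the ubiquinone site, had different profiles. SDHC had 72, 26 and 14 tags, with a log2 ratio of −1.39 in stage I (−2.10 to −0.72; Audic-Claverie, adjusted p = 5.48e-05) and −2.35 overall (−3.29 to −1.51; adjusted p = 8.05e-10). SDHD had 535, 780 and 594 tags, with a stage I ratio of 0.62 (0.46 to 0.79, below the 2-fold threshold) and an overall ratio of 0.17 (Audic-Claverie, adjusted p = 0.0904). SDHD thus made up 88.1% of the tags of the pair at −35 d (95% Wilson interval 85.3 to 90.5), 96.8% at −7 d (95.3 to 97.8) and 97.7% at +3 d (96.2 to 98.6). This share is taken within a library and does not depend on the scaling. The catalytic subunits were SDHA (74.6, 56.9 and 31.1 TPM), called lower overall at −1.26, and SDHB (101, 94.6 and 74.1 TPM), not called. No member of complex II was called in stage II.

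Complex III, the cytochrome bc1 complex, held the only subunit called higher on the clean tag total. UQCRC2, a core protein on the matrix side, had 19.6, 44.0 and 32.2 TPM. It rose 2.24-fold in stage I (log2 ratio 1.17, 0.84 to 1.50; Audic-Claverie, adjusted p = 1.72e-12), and at +3 d it was still above its level at −35 d, at 0.71 (0.37 to 1.06), which passed the 2-fold threshold under TMM only. The other core protein, UQCRC1, had 74.4, 73.7 and 40.0 TPM. UQCRC2 made up 20.9% of the tags of the core pair at −35 d (17.7 to 24.4), 37.4% at −7 d (33.8 to 41.1) and 44.5% at +3 d (39.9 to 49.3).

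UQCRFS1, the Rieske iron-sulfur protein, had 46.3, 23.8 and 16.6 TPM and so was highest in the dry period. Its stage I ratio was −0.96 (−1.27 to −0.66), just short of 2-fold, and its overall ratio of −1.48 was called (−1.83 to −1.14; Audic-Claverie, adjusted p = 2.70e-19). CYC1, cytochrome c1, had 76.4, 79.6 and 38.0 TPM and was the only member of the complex called lower in stage II, at −1.07. UQCRH, the hinge protein and the subunit with the most tags at −35 d, had 2807, 3010 and 1651 tags, and its stage II ratio of −0.93 (−1.02 to −0.84) was not called despite its small counting error. UQCRB, UQCRQ and UQCR10 had stage II ratios of −0.30, −0.76 and −0.97, and UQCR10 was called lower overall. The complex had medians of 0.01, −0.82 and −0.82, and under TMM of 0.20, −0.51 and −0.32. Of its 8 genes, 0, 1 and 3 were called lower (0%, 12.5% and 37.5%, against 6.45%, 10.4% and 16.3% of all genes). The 1 higher call of stage I is 12.5%, against 2.62% of all genes. Under TMM none was called lower in any comparison, against 3.9%, 4.9% and 4.94% of all genes.

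Complex IV, cytochrome c oxidase, had medians of −0.04 in stage I, −0.36 in stage II and −0.58 overall (0.15, −0.05 and −0.09 under TMM). Of its 11 genes, 3, 0 and 5 were called lower (27.3%, 0% and 45.5%, against 6.45%, 10.4% and 16.3% of all genes). Under TMM 2, 0 and 3 were called lower (18.2%, 0% and 27.3%, against 3.9%, 4.9% and 4.94% of all genes). The nuclear subunits of complex IV do not carry the catalytic metals but surround the core made in the mitochondrion, and several have tissue forms. COX4I1 had 469 TPM at −35 d, 521 TPM at −7 d and 578 TPM at +3 d. It was lowest in the dry period, and its overall log2 ratio was 0.30 (0.23 to 0.37) and 0.80 under TMM, below the 2-fold threshold on both scales. COX5A, which binds next to it early in assembly, had 69.7, 30.0 and 22.1 TPM, with a log2 ratio of −1.21 in stage I (−1.48 to −0.95; Audic-Claverie, adjusted p = 1.71e-20) and −1.66 overall. The share of COX4I1 in the tags of the 2 genes, a pair chosen after the values were seen, was 87.1%, 94.6% and 96.3%.

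COX7A2, the form of subunit VIIa found in most tissues, had 314, 63 and 61 tags. It fell 4.71-fold in stage I (log2 ratio −2.24, −2.65 to −1.84; Audic-Claverie, adjusted p = 1.02e-36) and had a stage II ratio of −0.11 (−0.64 to 0.42), so its levels at −7 d and +3 d could not be told apart by counting error. COX7A1, the form known from heart and skeletal muscle, had 48, 69 and 56 tags and was not called. COX7A1 therefore made up 13.3% of the tags of the pair at −35 d (10.1 to 17.1), 52.3% at −7 d (43.8 to 60.6) and 47.9% at +3 d (39.0 to 56.8), on 362, 132 and 117 tags. COX7A2L, a related protein known from supercomplexes, had 86.7, 84.4 and 57.8 TPM and was not called. Skeletal muscle markers (ACTA1, CKM, MYL1 and TNNT3) summed to 0.507, 1.07 and 1.71 TPM, near 0 in every library.

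COX8A, a small subunit of the membrane part, had 28.2, 12.9 and 6.67 TPM, lower at each time point than at the one before. Its ratio was −1.13 in stage I (−1.55 to −0.73; Audic-Claverie, adjusted p = 6.84e-08), a call that TMM did not keep, and −2.08 overall. COX6A1 (55.0, 32.5 and 20.5 TPM) and COX7C (97.4, 79.7 and 42.1 TPM) were called lower in the overall comparison, at −1.42 and −1.21. NDUFA4, first assigned to complex I and now placed in complex IV, had 79.8, 93.5 and 77.1 TPM and an overall ratio of −0.05 (−0.24 to 0.14), or 0.45 under TMM. Its relative NDUFA4L2 had 12, 11 and 21 tags. COX6B2, the testis form of subunit VIb, had 0, 2 and 3 tags, at or under the 3-tag floor in every library, so no fold is given. No member of complex IV was called in stage II.

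Summed over its 11 genes, complex IV had 949, 880 and 828 TPM, and its share of all subunit tags was 13.3%, 12.0% and 18.6%. Relative to −35 d its sum at +3 d was 0.872 on the clean tag total and 1.23 under TMM, so its direction flipped with the scaling. The sum rested on COX4I1. Without that gene, a choice made after the values were seen, complex IV had 480, 359 and 250 TPM, or 0.522 of its −35 d level at +3 d (0.737 under TMM), close to the 0.530 of complex I (0.749 under TMM).

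**Figure D3:**
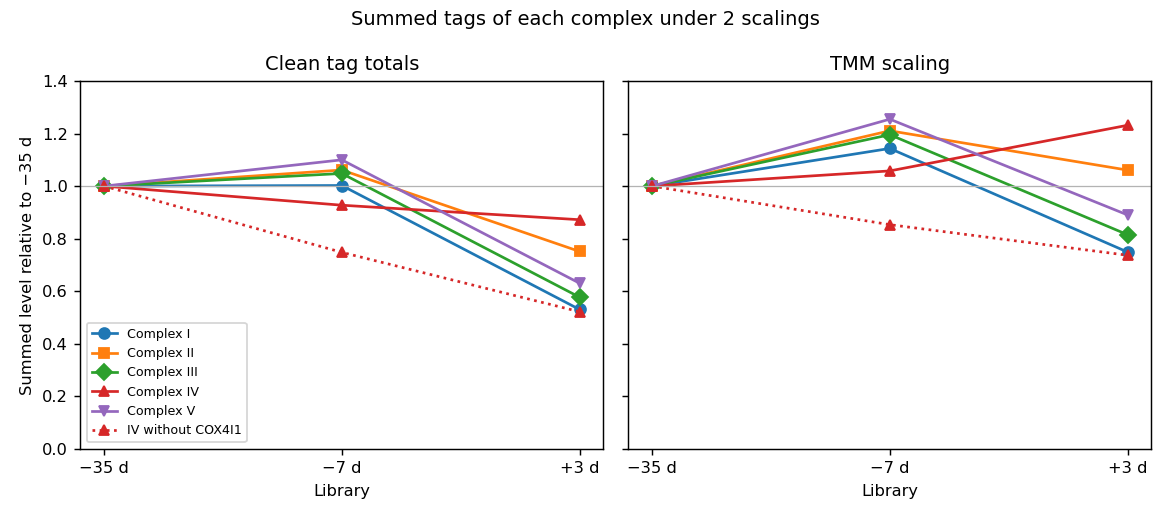
Summed level of each complex relative to the −35 d library (no unit) in the 3 libraries, with clean tag totals on the left and TMM scaling on the right, and with complex IV also drawn without COX4I1 as a dotted line. At +3 d complexes I, III and V lie at 0.530, 0.577 and 0.630 on the left and at 0.749, 0.815 and 0.890 on the right, while complexes II (0.751 and 1.06) and IV (0.872 and 1.23) cross 1 between the scalings.

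Complex V, the ATP synthase, consists of a catalytic head (F1), a stator stalk, a membrane part and a rotating ring of c subunits. Its 13 genes had medians of 0.03 in stage I, −0.90 in stage II and −0.70 overall (0.22, −0.59 and −0.20 under TMM). Of these genes, 0, 5 and 5 were called lower (0%, 38.5% and 38.5%, against 6.45%, 10.4% and 16.3% of all genes). Under TMM none was called lower in any comparison, against 3.9%, 4.9% and 4.94% of all genes. The c ring protein is made from ATP5G1, ATP5G2 and ATP5G3, which encode the same mature protein with different import sequences. ATP5G3 had 326 TPM at −35 d, 594 TPM at −7 d and 257 TPM at +3 d. It peaked at −7 d, where it had the most tags of all subunits (3322), with a stage I ratio of 0.86 (0.78 to 0.95), below 2-fold on the clean tag total and above it under TMM, and a stage II ratio of −1.21 (−1.30 to −1.12; Audic-Claverie, adjusted p = 4.76e-171).

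ATP5G2 had 435, 424 and 274 TPM and was not called, and ATP5G1 had 79.1, 89.6 and 43.4 TPM and was called lower in stage II at −1.04. ATP5G3 thus took 38.8% of the tags of the 3 genes at −35 d (37.5 to 40.2), 53.6% at −7 d (52.4 to 54.9) and 44.8% at +3 d (43.1 to 46.4), while ATP5G2 took 51.8%, 38.3% and 47.7%. The intervals of the −7 d library did not overlap those of the other libraries. Tags shared by several genes were left out by the study, so these shares rest on the tags that differ between the 3 genes.

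In the F1 head, ATP5A1 (alpha subunit) had 116, 123 and 54.1 TPM and was called lower in stage II at −1.18. ATP5B, the catalytic beta subunit, had 297, 367 and 197 TPM and a stage II ratio of −0.90, just short of 2-fold and not called. ATP5E, the small epsilon subunit of the central stalk, had 36.0, 46.3 and 60.9 TPM and was higher at each later time point, with an overall ratio of 0.76 (0.51 to 1.01; Audic-Claverie, adjusted p = 4.47e-09), below 2-fold on the clean tag total and called under TMM at 1.25. ATP5E made up 23.7% of the tags of the pair with ATP5A1 at −35 d (21.0 to 26.6), 27.4% at −7 d (24.6 to 30.3) and 53.0% at +3 d (49.2 to 56.7), a pair chosen after the values were seen. ATP5D, the delta subunit that binds next to epsilon, had 105, 99.9 and 99.0 TPM, with an overall ratio of −0.08 (−0.25 to 0.09), or 0.42 under TMM.

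In the stator, ATP5J (126, 89.2 and 47.7 TPM), ATP5F1 (127, 132 and 56.8 TPM) and ATP5O (118, 106 and 57.8 TPM) were all called lower in the overall comparison, at −1.40, −1.16 and −1.03. The share of all genes called lower there was 16.3%. None of these calls was kept under TMM (4.94% of all genes). ATP5F1 had the lowest stage II ratio of the complex, at −1.22 (−1.41 to −1.03; Audic-Claverie, adjusted p = 3.56e-39). Of the small membrane subunits, ATP5L had 459, 428 and 210 TPM and was called lower in stage II at −1.02, while ATP5I had 155, 159 and 145 TPM and an overall ratio of −0.10 (−0.23 to 0.04), or 0.40 under TMM. Members of the same complex therefore ended at +3 d between −1.40 (ATP5J) and 0.76 (ATP5E) relative to −35 d.

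**Figure D4:**
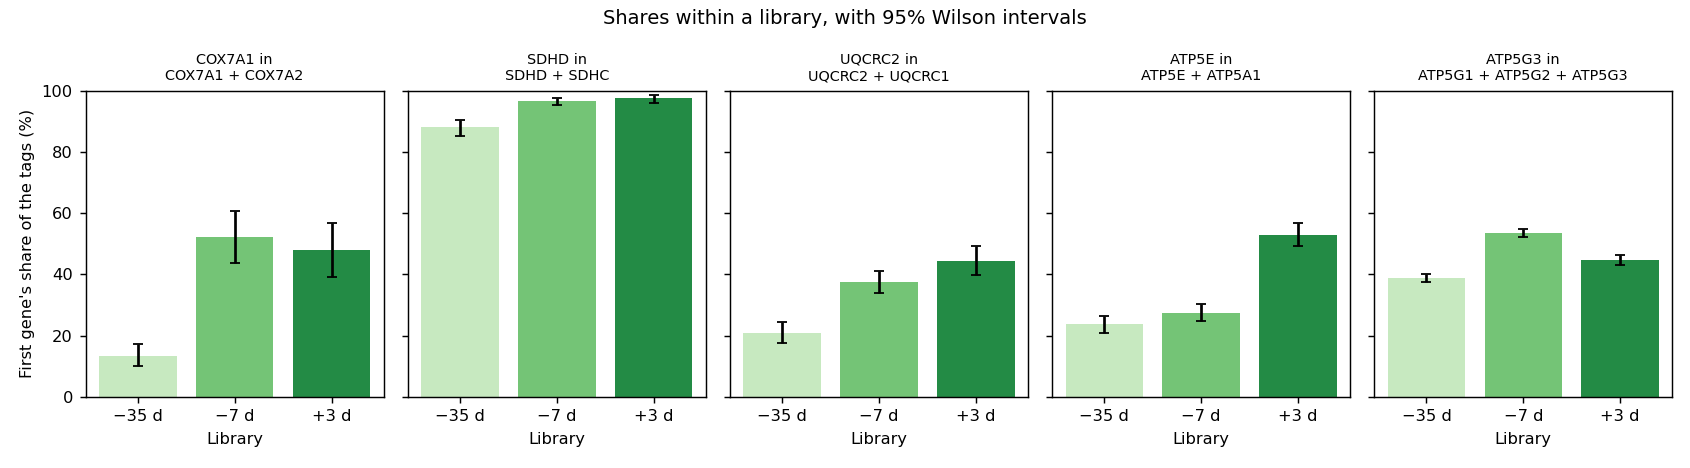
Share (%) of the first-named gene in the tags of a pair or family within each library, with 95% Wilson intervals (counting error only), for COX7A1 with COX7A2, SDHD with SDHC, UQCRC2 with UQCRC1, ATP5E with ATP5A1, and ATP5G3 with ATP5G1 and ATP5G2. These shares do not depend on the scaling, and that of COX7A1 is 13.3% at −35 d and 52.3% at −7 d, that of ATP5E 27.4% at −7 d and 53.0% at +3 d.

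The 5 outlying symbols were 3 assembly factors of complex I and 2 other genes whose symbols fit the rule. NDUFAF4 had 108, 98 and 35 tags and was called lower in stage II (log2 ratio −1.55, −2.15 to −0.98; Audic-Claverie, adjusted p = 4.52e-08) and in the overall comparison, also under TMM. NDUFAF2 had 25, 14 and 4 tags and was called lower overall on the clean tag total, and NDUFAF3 had 177, 204 and 163 tags and was not called. COX4NB, a neighbour of COX4I1 whose current name is EMC8, encodes a protein of the endoplasmic reticulum and had 61.5, 47.6 and 33.4 TPM. ATP5S, now DMAC2L, had 9.47, 6.97 and 4.11 TPM, and neither was called. With the outlying symbols counted, 20 of the 76 members were called lower in stage II and 29 overall (26.3% and 38.2%, against 10.4% and 16.3% of all genes). Under TMM these counts were 3 and 11 (3.95% and 14.5%, against 4.9% and 4.94% of all genes).

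Other genes of the mitochondrion and of protein synthesis gave a comparison. Of 37 assembly factors of the respiratory chain, 23 had tags (the 3 NDUFAF genes above among them), with a median of 0.15 in stage I, −0.70 in stage II and −0.71 overall. CMC1 (76, 144 and 143 tags) and TMEM126A (0, 29 and 2 tags) were called higher in stage I (8.70%, against 2.62% of all genes). BCS1L, COX10, COX11, NDUFAF4 and TMEM126A were called lower in stage II (21.7%, against 10.4% of all genes), and 6 factors were called lower overall (26.1%, against 16.3%). Under TMM these counts were 4 and 2 (17.4% and 8.70%, against 4.9% and 4.94% of all genes). Of 12 citrate cycle enzymes with tags, FH, MDH2, SUCLG1 and SUCLG2 were called lower in stage II (33.3%, against 10.4% of all genes), 4 were called lower in the overall comparison (against 16.3%), and the medians were −0.08, −0.51 and −0.74. Under TMM 3 were called lower in stage II and 1 overall (25% and 8.33%, against 4.9% and 4.94% of all genes). MDH2, the mitochondrial malate dehydrogenase, had 823, 1179 and 471 tags.

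Of the electron carriers (CYCS, ETFA, ETFB and ETFDH), ETFDH was called lower in stage II with 87, 155 and 51 tags, and the medians were 0.60, −0.88 and −0.55. ATPIF1, the inhibitor of the ATP synthase, had 1773, 2351 and 1037 tags, and UCP2, an uncoupling protein homologue, had 379, 333 and 130 tags. Both were called lower in stage II, as were 10.4% of all genes. Of 3 adenine nucleotide carriers, which exchange ATP for ADP, SLC25A5 was called lower in stage II, with 348, 480 and 201 tags. Of 8 regulators of mitochondrial biogenesis with tags, POLG2 and TFB2M were called lower overall (25%, against 16.3% of all genes). None was called lower in stage II (10.4% of all genes), and the medians were −0.26, −0.80 and −0.94.

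The medians of other large gene groups were also below that of all genes in stage II. Mitochondrial ribosomal proteins had 11 of 68 genes called lower in stage II (16.2%, against 10.4% of all genes), with a median of −0.64, and 4 under TMM (against 4.9% of all genes). Cytosolic ribosomal proteins, many of which have near-identical copies whose shared tags were left out, had a median of −0.64. Of these genes, 5 of 51 were called lower, which is 9.80% and no more than the share of all genes. Under TMM 3 were called lower (5.88%, against 4.9% of all genes). The proteasome had 18 of 34 called lower (52.9%, against 10.4% of all genes), with a median of −1.01, and 5 under TMM (14.7%, against 4.9%). The overall medians of these lists were −0.64, −0.80 and −0.91, against −0.75 for the subunits. Under TMM the stage II medians of the lists were raised by the same 0.31 as all genes.

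**Figure D5:**
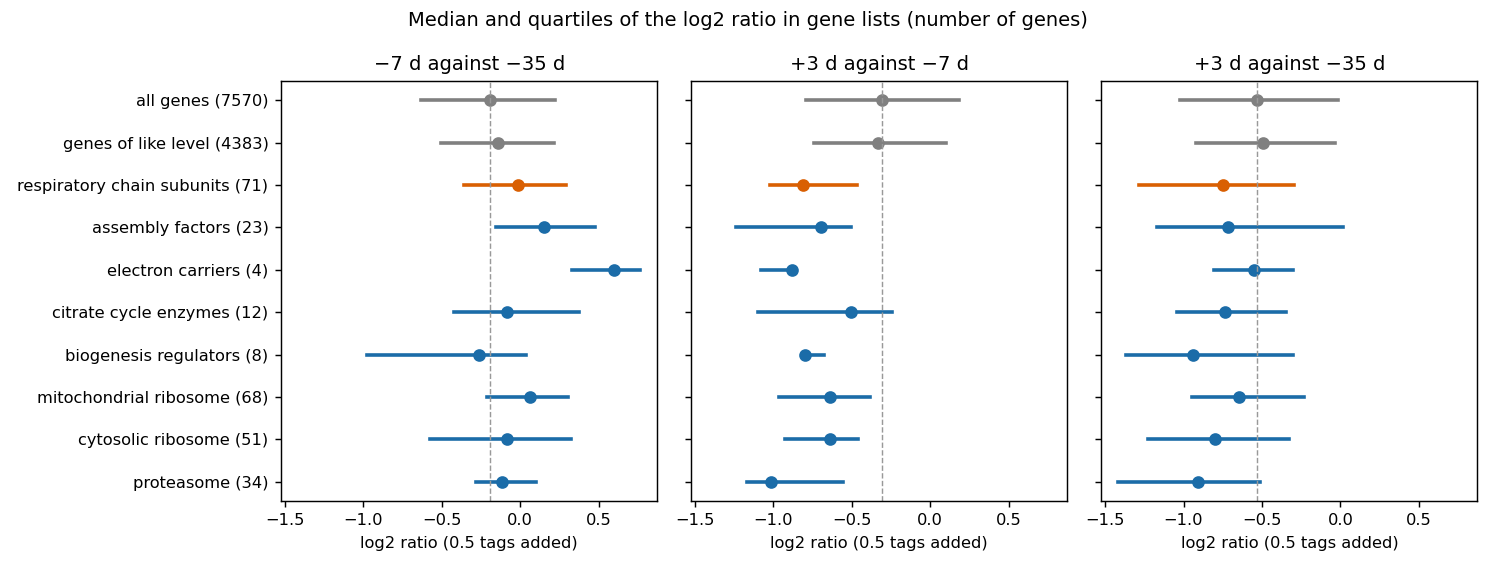
Median (point) and quartiles (bar) of the log2 ratio with 0.5 tags added on clean tag totals for all genes averaging 1 TPM or more, genes of like level, the subunits (orange) and other gene lists, with the number of genes of the overall comparison in brackets and the dashed line at the median of all genes. In stage II the subunits (−0.81), mitochondrial ribosome (−0.64), cytosolic ribosome (−0.64) and proteasome (−1.01) all lie below all genes (−0.31), and TMM adds 0.31 to each.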

How the data were processed

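Members and gene lists were chosen with earlier results of these data known. The authors built 1 tag library from each pool of mammary RNA (the Illumina gene expression kit, NlaIII tags), removed adaptor, low-quality and single-copy tags, and matched the rest to genes of the UMD 3.1 bovine build with at most 1 mismatch, leaving out tags of several genes; the aligner is not given in the sources used here. The deposited values used were the count of tags per gene and the TPM, the count per 1000000 clean tags made by the authors without length scaling. The clean tag total of each library was the sum of the copy numbers in its deposited tag list, and the tag sequences were not used. A deposited summary table, which also holds the authors' comparisons, was not used.

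From the counts, ratios, exact binomial intervals (95%) and Audic-Claverie p-values (2 times the smaller tail, with Benjamini-Hochberg adjustment) were computed with numpy 2.4.6 and scipy 1.17.1, after a check on simulated data. The study's methods name the Audic-Claverie formula, an FDR and the thresholds below, while the tail rule, the adjustment and the intervals were chosen here. A gene was called at an adjusted p of at most 0.001 and at least 2-fold, with 0 TPM set to 0.01. No replicate exists, so the p-values compare libraries. TMM (edgeR 4.0.16), DESeq2 1.42.0 size factors, totals without genes over 1%, a mean of at least 5 TPM, Fisher's exact test, thresholds of 3-fold and of FDR alone, and the exact test of edgeR at a biological coefficient of variation set to 0.2 were the alternatives.

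The naming rule took, per complex and comparison, the highest and lowest member with at least 5 TPM, each member called higher, the 3 with most tags per library, the tissue forms, members with 0 tags and the outlying symbols. It also took SDHA, SDHB, CYC1, UQCRFS1, NDUFV1, NDUFS1, COX4I1, ATP5A1 and ATP5B. Other members given with values were chosen after values were seen, as were the pairs SDHD with SDHC, UQCRC2 with UQCRC1 and ATP5E with ATP5A1, and the genes of like level. Of the 76 members, 71 matched a current RefSeq symbol by accession (ARS-UCD2.0, names only). Sequences were not printed, since no table used here pairs them with these genes. A member that was counted but is not named is not reported here.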

Additional observations from a re-analysis of the deposited data

How the results depend on the processing

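The 6 subunits called in stage I became 1 in edgeR's exact test at a biological coefficient of variation set to 0.2, 1 at 3-fold and 26 on FDR alone. Of all genes, 0.301%, 1.08% and 7.55% were called higher under these settings, and 0.301%, 2.45% and 14.9% lower. The 19 called in stage II became 2 with TMM, 2 with DESeq2 size factors, 2 with totals without genes over 1%, 2 at 3-fold, 47 on FDR alone (46 of them lower, as were 21.8% of all genes) and 0 in that edgeR test, where 31 (43.7%) had an unadjusted p below 0.05, against 20.1% of all genes. The 27 called overall became 12, 12, 17, 10, 50 and 1 under the same settings in the same order. In that order, 4.90%, 4.70%, 4.90%, 3.55%, 21.8% and 1.08% of all genes were called lower in stage II. The shares called higher there were 5.87%, 5.97%, 5.89%, 1.46%, 6.20% and 0.740%. For +3 d against −35 d, 4.94%, 4.67%, 6.98%, 5.94%, 28.9% and 1.13% of all genes were called lower. The shares called higher there were 6.23%, 6.36%, 4.58%, 1.39%, 5.23% and 0.601%. The median of −0.81 in stage II became −0.50 with TMM, −0.49 with DESeq2 and −0.50 with totals without genes over 1%, and that of −0.75 overall became −0.25, −0.23 and −0.38. The summed level of complex IV relative to −35 d turned from 0.927 to 1.06 at −7 d with both TMM and DESeq2, and from 0.872 at +3 d to 1.23, 1.25 and 1.12 with these and with totals without genes over 1%. That of complex II at +3 d turned from 0.751 to 1.06 with TMM and 1.07 with DESeq2. TMM, DESeq2 size factors and the other totals change only the library totals; the cause of the other changes was not tested. Fisher's exact test gave the same call in all 228 tests of a member in a comparison, and no member that was called reversed its direction. No replicate could be left out. No paired analysis was possible because each time point had 1 library. At these depths 3 tags are 0.507 to 0.536 TPM, which limits NDUFB3, COX6B2 and the NDUFV2 entry with few tags.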
